A study of Mus musculus with 6 samples.

Results

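The Sox genes encode transcription factors that bind and bend DNA through a shared HMG box. Among the 10 genes described here, those of SoxB1 (Sox1 and Sox2) keep neural progenitors dividing, and Sox21 of SoxB2 counteracts them. Those of SoxC (Sox4 and Sox11) act in newly formed neurons, those of SoxD (Sox5 and Sox6) specify cortical projection neurons and interneurons, and those of SoxE (Sox8, Sox9 and Sox10) act in the formation of glia. The 10 genes were taken by name, and their regions are the rows of 3 deposited lists that name one of them. They hold 44 of 41527 regions on chromosomes 1 to 19, X and Y, and 8 of the 10 genes are named by at least 1 region. Sox10 and Sox21 are named by none.

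The lists come from CUT&Tag of TERT, the catalytic protein of telomerase, in which an antibody brings a transposase to the chromatin that the protein occupies. Neurons were cultured from the cortex and hippocampus of C57BL/6 mouse embryos of days E15-18. Of 6 samples, 3 were exposed for 24 h to BIBR1532, an inhibitor of telomerase, at 2 µM, and 3 received the vehicle DMSO for the same time. A label field of the vehicle samples reads untreated. The labels give no genetic change, do not say whether replicates came from separate litters or cultures, and name no control antibody. The libraries of each condition were combined before the regions were called, so each condition is 1 measurement, no value has a replicate error, and no test between the conditions was possible. The depth of the samples is unknown.

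The BIBR1532 list (16153 regions) holds regions with more signal under the inhibitor, the vehicle list (18562) those with more signal under vehicle, and the common list (6812) those called in both. This direction follows the order in which the conditions stand in the names of the lists and is likely, not stated. Regions in the BIBR1532 or vehicle list are called condition-specific. Each region names the gene with the nearest annotated start site, whatever the distance. It also carries the authors' own score, which in MACS2 is a log10 likelihood ratio and ranks regions within a list. A threshold of 1 stands in the names of the lists, and condition-specific scores just above 1 lie close to it. In the BIBR1532 list 46.8% of regions share the score 6.34, and in the vehicle list 50.2% share 5.19. Of the condition-specific Sox regions, 10 of 18 BIBR1532 and 10 of 22 vehicle regions sit at these scores. The lists measure DNA and not RNA, so the labelled cell type could not be checked by expression. Of the marker genes listed for each cell type, regions in any list named 8 of 9 for neurons, 5 of 6 for neural progenitors, 4 of 5 for astrocytes, 5 of 7 for the oligodendrocyte lineage, 3 of 4 for microglia and 1 of 3 for endothelium, beside 59.1% of all protein-coding genes. These counts do not separate the cell types.

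Sequence at the start sites shows where the regions lie. The lines below give the 250 bases before the start site of 4 Sox genes, 5′ to 3′ on the gene's strand, from the RefSeq promoter table of GRCm38.p6, the assembly also called mm10. Capitals mark bases that lie inside a deposited region, so that Sox4 is covered whole and Sox11 in part by common regions, Sox1 holds a BIBR1532 region at its right end and a vehicle region at its left, and Sox2 holds none.

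Sox4, chr13:28953700-28953949, minus strand: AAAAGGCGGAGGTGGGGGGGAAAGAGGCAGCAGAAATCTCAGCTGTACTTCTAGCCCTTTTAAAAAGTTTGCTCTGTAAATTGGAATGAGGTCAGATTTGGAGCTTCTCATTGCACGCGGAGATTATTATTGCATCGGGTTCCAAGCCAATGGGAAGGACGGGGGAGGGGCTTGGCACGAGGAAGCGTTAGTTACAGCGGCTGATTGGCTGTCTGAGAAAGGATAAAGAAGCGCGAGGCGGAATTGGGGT
Sox11, chr12:27342719-27342968, minus strand: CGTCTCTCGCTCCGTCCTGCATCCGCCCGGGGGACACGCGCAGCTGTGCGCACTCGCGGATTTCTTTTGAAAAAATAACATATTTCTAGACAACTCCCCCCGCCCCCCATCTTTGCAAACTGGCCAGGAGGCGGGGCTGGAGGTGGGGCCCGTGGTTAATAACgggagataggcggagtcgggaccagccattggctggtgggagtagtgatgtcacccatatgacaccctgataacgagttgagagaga
Sox1, chr8:12395269-12395518, plus strand: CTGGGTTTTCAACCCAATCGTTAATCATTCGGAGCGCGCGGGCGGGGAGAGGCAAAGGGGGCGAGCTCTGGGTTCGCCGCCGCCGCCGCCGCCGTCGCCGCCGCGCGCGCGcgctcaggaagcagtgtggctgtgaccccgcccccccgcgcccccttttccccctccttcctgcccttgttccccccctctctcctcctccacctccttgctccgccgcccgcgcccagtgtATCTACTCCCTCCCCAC
Sox2, chr3:34649745-34649994, plus strand: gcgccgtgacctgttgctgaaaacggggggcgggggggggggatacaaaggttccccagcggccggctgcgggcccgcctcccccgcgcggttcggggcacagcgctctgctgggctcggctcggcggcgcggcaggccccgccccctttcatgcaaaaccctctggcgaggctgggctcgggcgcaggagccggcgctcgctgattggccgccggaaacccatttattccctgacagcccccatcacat

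All 250 of these Sox4 bases and 163 of the Sox11 bases lie in a common region. In Sox1, 17 bases lie in a BIBR1532 region and 111 in a vehicle region. GC content in the Sox2 window was 66.3% over the 300 bases that include the first 50 of the transcript, against 70.7% in Sox1, 58.7% in Sox11 and 52% in Sox4. The median over 21238 promoter windows of protein-coding genes was 56.3%. The Sox1 window held 37 CpG sites, that of Sox2 27, Sox11 21 and Sox4 12, beside a median of 13 over all windows. Of these 4 windows, that of Sox4, which lies whole in a common region, had the lowest GC content and the fewest CpG sites.

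Motifs were searched on both strands of the same 300-base windows, of which the table held 13 for 8 of the 10 genes. The HMG-box core ACAAAG was present in 6 windows, 1 of Sox2 and 5 of the 6 alternative promoters of Sox6, beside 16.8% of all windows. GC content in these 5 Sox6 windows was 45%, 41%, 39%, 63.3% and 47%, beside the median of 56.3% over all windows. No comparison with windows of equal GC content was made. The shorter core ACAAT was present in 4 windows, 1 of Sox5 and 3 of Sox6, beside 27.7% of all windows. The only Sox5 window belongs to a start at chr6:143947106, inside the RefSeq gene and not at its 5′ end. The vehicle promoter region of Sox5 described below lies at a different start. The windows of Sox1, Sox4, Sox11, Sox8 and Sox21 held neither core. One telomere repeat unit, TTAGGG, was found, in a Sox6 window, beside 10.5% of all windows. An E-box CACGTG was found in the Sox8 window, beside 7.84% of all windows. These matches describe letters in the windows and do not show binding.

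**Figure D1:**
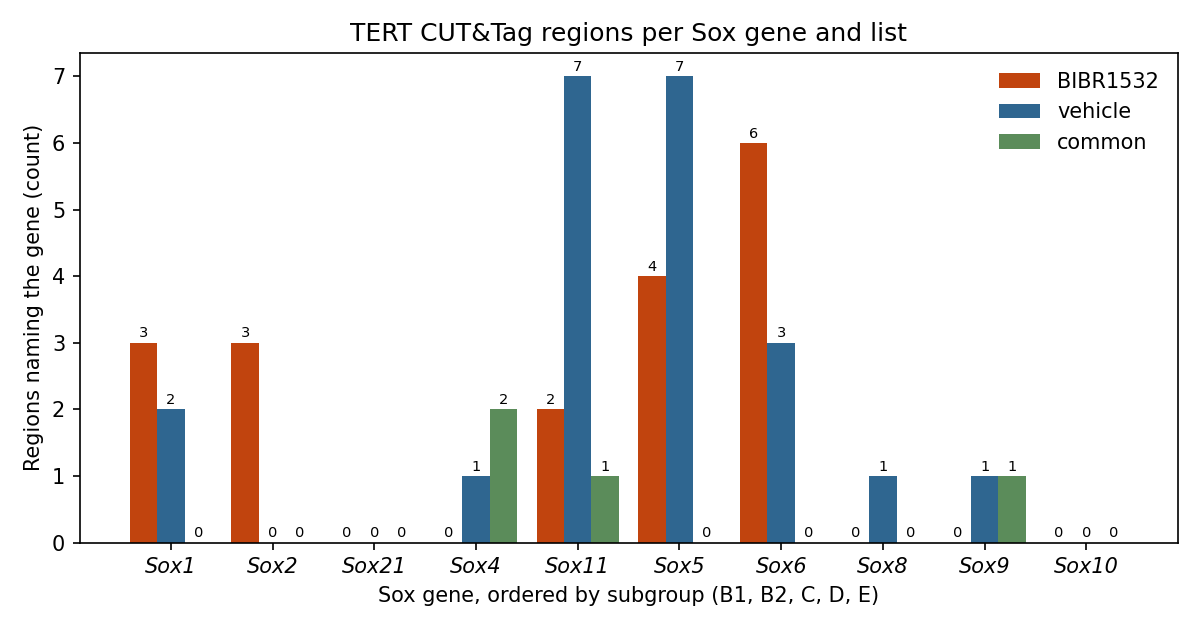
Number of TERT CUT&Tag regions that name each Sox gene (vertical axis, count) in the BIBR1532, vehicle and common lists, with the genes ordered by subgroup. Sox5, Sox6 and Sox11 hold 29 of the 40 condition-specific regions, and Sox10 and Sox21 hold 0 in every list.

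Shared TERT signal lay at the start sites of Sox4, Sox11 and Sox9. Common promoter regions were present at 3 of the 10 genes, Sox4, Sox11 and Sox9, beside 14.2% of 21887 protein-coding genes. The same 3 genes had a common region of any class, beside 23.9% of protein-coding genes. Of the 4 common Sox regions, 3 were at promoters, beside 51.9% of the whole common list.

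Sox4, which promotes the differentiation of young neurons, had 0 BIBR1532 regions, 1 vehicle region and 2 common regions, of which the one at its start was the widest of the 4 common Sox regions. It was 407 bp wide at chr13:28953585-28953991, centred 89 bp upstream of the start, and scored 0.106. A vehicle region of 357 bp (score 4.56) began at the next base on the transcribed side, at chr13:28953228-28953584, with a gap of 0 bp. It lay in the 5′ UTR of the single exon, centred 293 bp past the start. The Sox4 promoter therefore held signal called in both pools, with an adjoining stretch called higher under vehicle. A second common region of 309 bp (score 0.291) lay 5397 bp upstream in intergenic sequence.

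Sox11, also of SoxC and a factor of axon growth and neuronal maturation, had the same arrangement on the opposite side. Its common region was 258 bp wide at chr12:27342806-27343063, centred 216 bp upstream of the start, with a score of 0.0143. In the common list the score grows with the difference between the pools, and 6371 of the 6812 common regions scored at least as high as this one. A vehicle region of 128 bp (score 2.74) lay 154 bp further upstream, at chr12:27343218-27343345, in the promoter class. Sox4 and Sox11 thus each combined a common region at the start with a vehicle region beside it.

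Sox9, which switches progenitors to the formation of glia and marks astrocytes, had a common region of 368 bp at chr11:112781771-112782138, centred 256 bp upstream (score 0.150). Its single condition-specific region was a vehicle region (score 7.28) 31125 bp upstream, in a LINE-1 repeat. Past the 3′ end of Sox9, vehicle regions stood 3431 bp (score 6.58) and 16127 bp (score 5.19) from the gene and a common region 23652 bp from it, all named for the non-coding gene Gm11681. In all, 0 BIBR1532, 3 vehicle and 2 common regions lay inside Sox9 or within 50 kb of it.

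**Figure D2:**
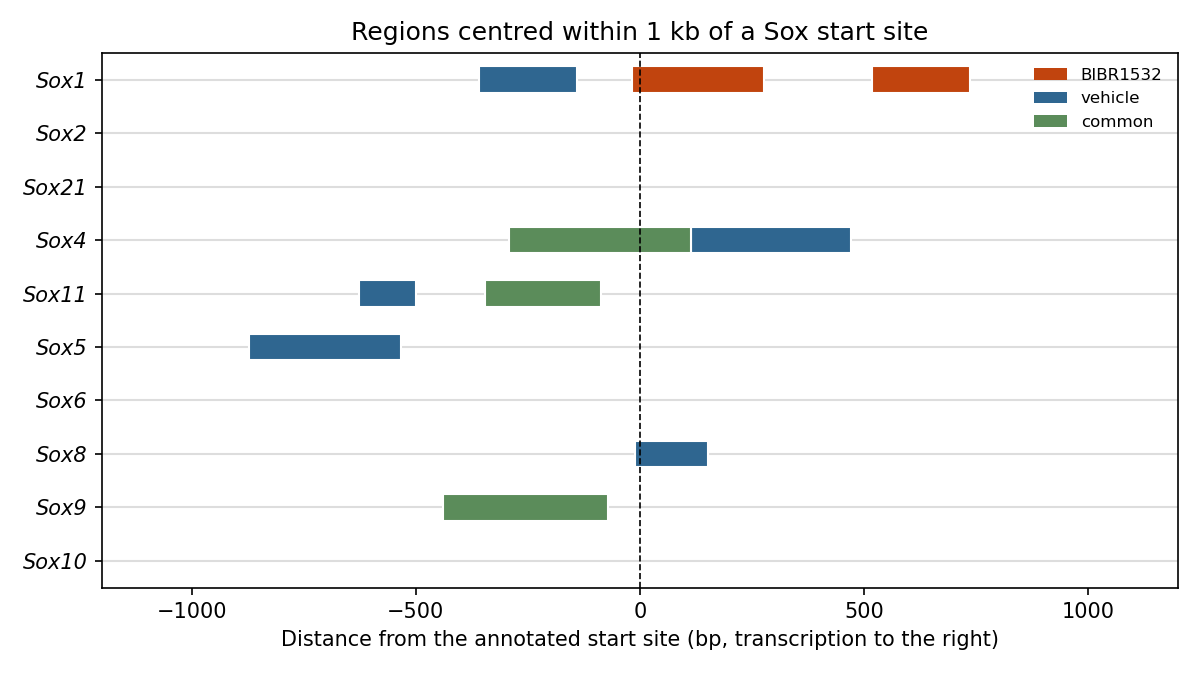
Regions centred within 1 kb of the annotated start site of each Sox gene, drawn to scale as bars against the distance from the start in bp, with colours for the BIBR1532, vehicle and common lists. Common regions cover or flank the starts of Sox4, Sox11 and Sox9, and Sox1 is the gene with BIBR1532 regions.

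The start of Sox1, a marker of neural progenitors, was the place in the family where both condition-specific lists met. In its 5′ UTR lay 2 BIBR1532 regions, out of 7 condition-specific Sox regions centred within 1 kb of a start. The stronger was 220 bp wide at chr8:12396038-12396257, centred 628 bp past the start, and scored 11.9. Of the 16153 BIBR1532 regions 317 (1.96%) scored at least as high, and of the 201 BIBR1532 regions in a 5′ UTR 3 did. The weaker, 296 bp at chr8:12395502-12395797, spanned the start and scored 2.72. A vehicle region of 218 bp at chr8:12395162-12395379 lay 122 bp before it, in the promoter class, and scored 1.34. That is a low score in its list, where 18133 of 18562 regions (97.7%) scored at least as high. No common region named Sox1. The non-coding gene Sox1ot, which contains Sox1, was named by 6 BIBR1532, 4 vehicle and 5 common regions, up to 266880 bp from its start. Nearest to Sox1 among them was a common region of 161 bp (score 0.0165), 6897 bp upstream of the gene.

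The other 5 of those 7 regions were vehicle regions, at Sox1, Sox4, Sox11, Sox5 and Sox8. Sox8, a SoxE gene of the oligodendrocyte lineage, had 1 region in all, a vehicle region of 163 bp over its start at chr17:25570534-25570696. It scored 1.46, and 96.8% of the vehicle list scored at least as high. Its promoter class refers to Cerox1, a non-coding gene that starts beside Sox8 and runs the other way. The region at Sox5 scored 2.68. Of the 7 regions near starts 5 scored under 3, the exceptions being those of Sox4 and the stronger BIBR1532 region of Sox1. In the whole lists, low-scoring regions were more often at promoters. Below the most frequent score, 28.5% of BIBR1532 and 40.9% of vehicle regions were promoter regions, beside 10.6% and 9.77% at any score. Those most frequent scores, 6.34 and 5.19, are higher cutoffs than the 3 used for the Sox regions. Of the 1814 vehicle promoter regions, 1097 scored at least as high as the Sox11 region at 2.74. Over the whole series 49.0% of the condition-specific regions within 1 kb of a start were BIBR1532 regions.

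Within 10 kb of a start, 2 of 9 condition-specific Sox regions were BIBR1532 regions, 22.2% (exact 95% interval 2.81 to 60.0), beside 49.3% of the 11574 such regions in the series. The interval covers counting error only and includes that share. In the promoter class, 0 BIBR1532 and 4 vehicle regions named a Sox gene, of 18 and 22. Of all BIBR1532 regions 10.6% were promoter regions, and of all vehicle regions 9.77%. These counts rest on class labels. The weaker BIBR1532 region of Sox1 spans the start but is classed as 5′ UTR, and the promoter class at Sox8 refers to Cerox1.

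Taken over all distances, the 40 condition-specific Sox regions divided into 18 from the BIBR1532 and 22 from the vehicle list, so that BIBR1532 regions made up 45% (exact 95% interval 29.3 to 61.5). The share over all 34715 condition-specific regions was 46.5%. That interval includes it but covers counting error only, since the regions of a gene are not replicates. A BIBR1532 region named 5 of the 10 genes, beside 34.5% of protein-coding genes, and a vehicle region named 7, beside 37.5%. A region of any list named 8, beside 59.1%. The 4 genes named in both condition-specific lists were Sox1, Sox5, Sox6 and Sox11. These are the members with the most condition-specific regions, 5, 11, 9 and 9. The share of all protein-coding genes named in both lists was not counted, so this number has no comparison.

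The genes differed among themselves in how their regions divided. Sox2, the factor that keeps neural stem cells self-renewing, had 3 BIBR1532 and 0 vehicle regions. Sox6, which acts in cortical interneurons, had 6 BIBR1532 and 3 vehicle regions, and Sox1 had 3 and 2. In the other direction Sox11 had 2 BIBR1532 and 7 vehicle regions, and Sox5, which controls the fate of deep-layer projection neurons, had 4 and 7. Sox4, Sox8 and Sox9 had 0 and 1 each. With counts this small, a difference of direction between genes was not tested and rests on single pooled measurements.

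**Figure D3:**
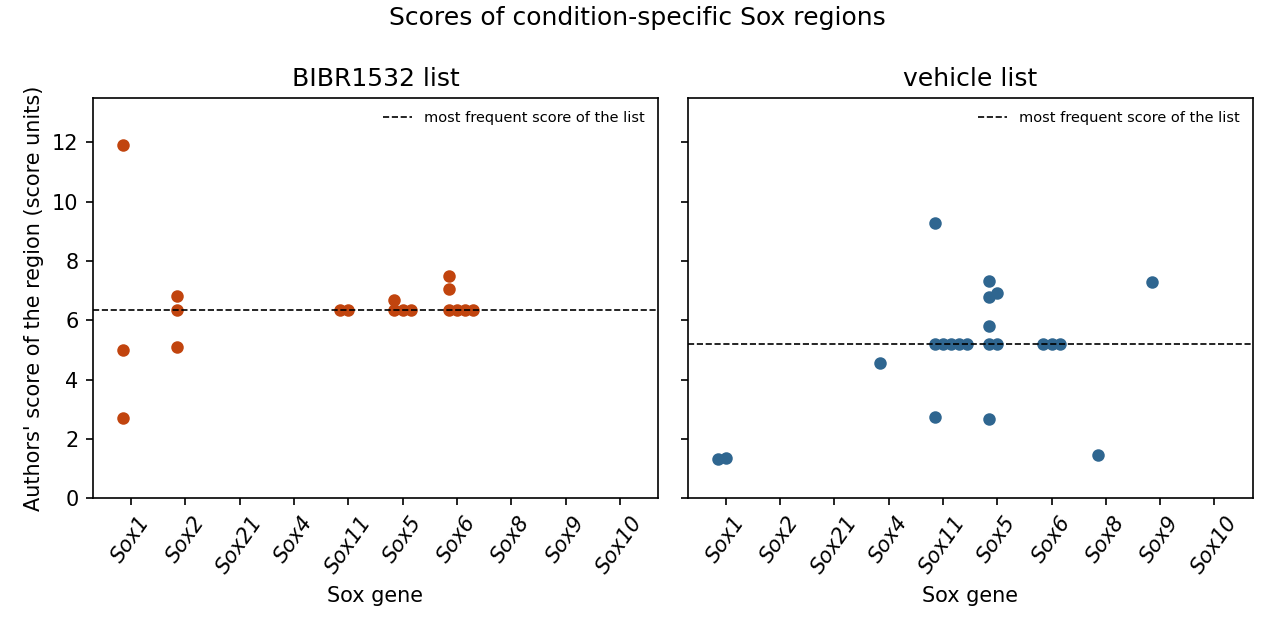
Authors' score (vertical axis, score units) of each condition-specific Sox region, by gene, in the BIBR1532 list on the left and the vehicle list on the right, with the most frequent score of each list as a dashed line. In each list 10 Sox regions sit on that line, and the highest are a BIBR1532 region of Sox1 at 11.9 and a vehicle region of Sox11 at 9.28.

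Sox2 itself was free of regions in every list, and the nearest lay 9966 bp from the gene. Its 3 BIBR1532 regions lay downstream of the start, at 15595 bp (score 5.10), 21320 bp (score 6.81) and 32770 bp (score 6.34). The first pair was inside intron 4 of the 4 introns of Sox2ot, the long non-coding gene that contains Sox2. Upstream of Sox2 and also inside Sox2ot stood 2 more BIBR1532 regions, with scores of 1.29 and 2.09, and 2 vehicle regions, both at the frequent score 5.19 of that list, all named for Mir1897. Within 50 kb Sox2 therefore had 5 BIBR1532, 2 vehicle and 0 common regions. Farther upstream the balance was the reverse. Of the regions named for Sox2ot, 2 were BIBR1532 and 9 vehicle regions, up to 201094 bp from its start.

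Sox21 and Sox10 gave 0 regions by name, with different surroundings. Within 50 kb of Sox21 stood 2 BIBR1532 regions, 2817 bp (score 4.82) and 34302 bp (score 7.42) past its 3′ end, and 1 vehicle region. This vehicle region, of 127 bp at chr14:118236185-118236311 (score 7.35), lay inside the transcribed Sox21 gene. All 3 named a non-coding gene that starts within Sox21 and is Gm4675 in RefSeq. Sox10, the master regulator of oligodendrocytes, had no region of any list inside it or within 10 kb. The nearest, a BIBR1532 region with a score of 1.88, lay 28310 bp away in an intron of the non-coding gene Gm10863, followed by a common region (score 0.0590).

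**Figure D4:**
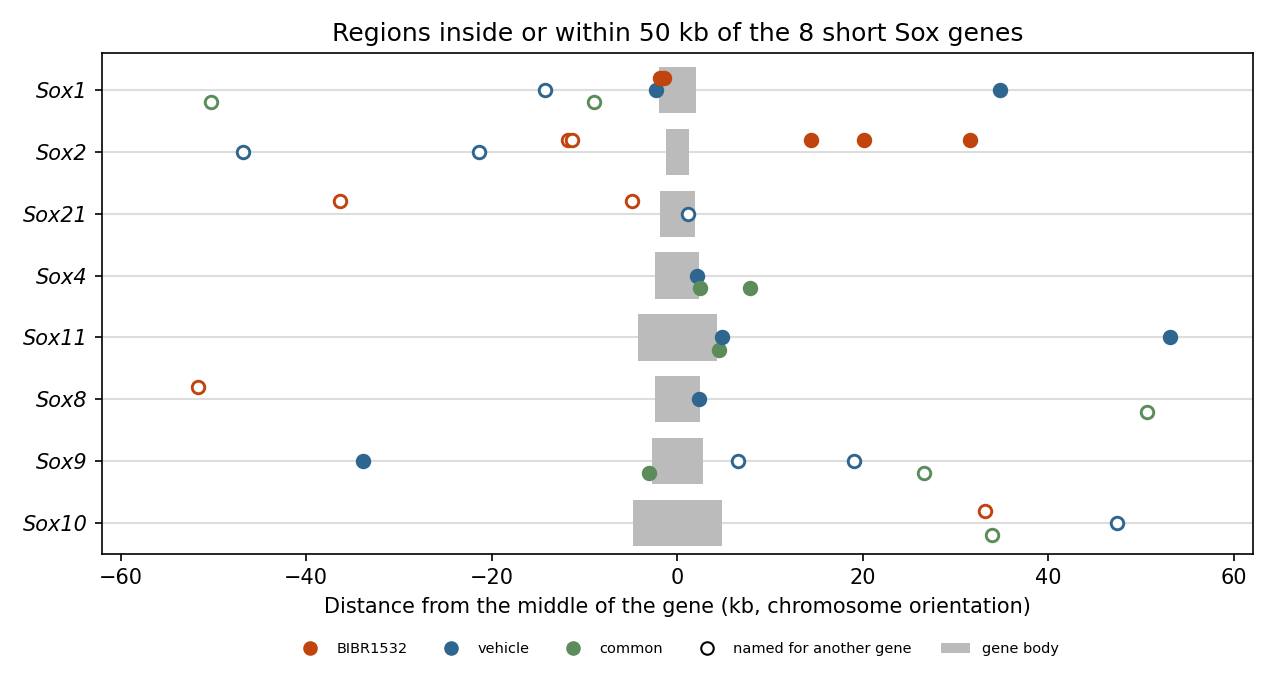
Regions inside or within 50 kb of the 8 short Sox genes against the distance from the middle of the gene in kb, with BIBR1532, vehicle and common regions in separate colours, gene bodies in grey and open circles for regions named for another gene. The Sox21 body holds a vehicle region named for another gene, and Sox10 has no region nearer than 28310 bp.

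Sox5, Sox6 and Sox11 held 29 of the 40 condition-specific regions (72.5%). Each had at least 9, as did 1.54% of protein-coding genes. The cutoff of 9 equals the lowest count among these genes, which are the members with the most condition-specific regions. Protein-coding genes were not matched by length or by the space around them. The share of 1.54% is therefore descriptive and does not measure how unusual these genes are. Sox5 and Sox6 are the long genes of the family, at 954 and 570 kb in RefSeq, where the other 8 are 2.47 to 9.58 kb long. Sox11 is short, and its distant regions lay in the intergenic space around it. Of its 9 condition-specific regions, 8 were intergenic and up to 602724 bp from its start. They included 2 BIBR1532 and 5 vehicle regions at the shared scores and 1 vehicle region of 824 bp at chr12:27671709-27672532, 329402 bp upstream. That region scored 9.28, a score that 804 of the 18562 vehicle regions (4.33%) reached. A BIBR1532 region ended 2003 bp from it.

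Sox6 had no region within 9 kb of a start site. Of its 9 regions, 7 lay in introns, 5 BIBR1532 and 2 vehicle, and 1 of each list lay beyond the 3′ end. The BIBR1532 regions of highest score, 7.48 in intron 4 of 15 and 7.06 in intron 2 of 15, stood 48898 and 19944 bp from a start. A vehicle region in intron 4 lay 2194 bp from the first of them. All 3 vehicle regions and the other 4 BIBR1532 regions had the shared scores. Counted by position, 7 condition-specific regions lay inside Sox6, or 1.23 per 100 kb, against 1.91 per 100 kb over the bodies of all protein-coding genes.

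Naming by nearest start divided Sox5 between 2 genes. By name it had 4 BIBR1532 and 7 vehicle regions, but the RefSeq gene also contains the 11 regions that name Sox5os3, a non-coding gene inside it. These were 6 BIBR1532 and 5 vehicle regions, which the annotation in the lists classed as intergenic. Inside Sox5 by position there were then 10 BIBR1532 and 12 vehicle regions, 2.31 per 100 kb, against the same 1.91 per 100 kb over all protein-coding gene bodies.

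The highest scores inside Sox5 were in its 5′ part in both lists, whereas the median score was higher there in the BIBR1532 list and lower there in the vehicle list. Of the 6 BIBR1532 regions named for Sox5os3, 5 scored above the shared 6.34 of the list, up to 10.4, with a median of 8.94. Of the 4 named for Sox5, 1 did, at 6.70, and the median was 6.34. The highest-scoring BIBR1532 region named for Sox5os3 was also the widest region in the gene, 2577 bp at chr6:144659820-144662396. Vehicle regions reached 10.99 among those named for Sox5os3 and 7.31 among those named for Sox5. Their median was 5.19 for Sox5os3, where 2 of 5 scored above the shared score, and 5.81 for Sox5, where 4 of 7 did. The vehicle region of 1488 bp at chr6:144403210-144404697 (score 6.92) was the widest that named any of the 10 genes.

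**Figure D5:**
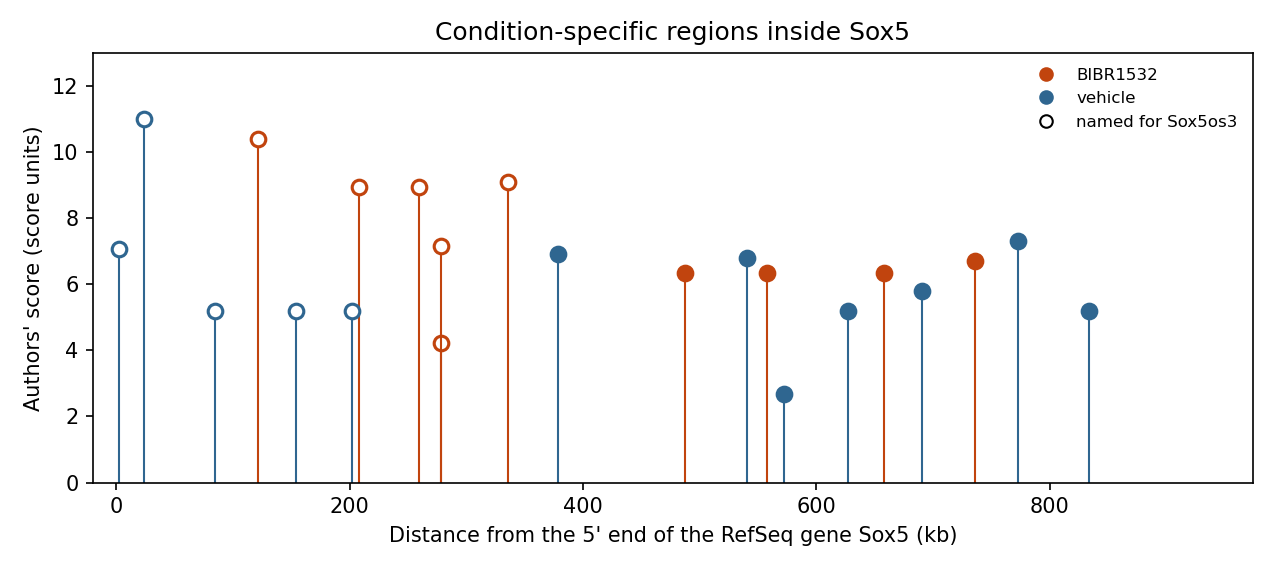
Authors' score (vertical axis, score units) of the 22 condition-specific regions inside Sox5 against the distance from the 5′ end of the RefSeq gene in kb, with BIBR1532 and vehicle regions in separate colours and open circles for regions named for Sox5os3. The 11 regions of the 5′ part all name Sox5os3 and reach 10.4 among BIBR1532 and 10.99 among vehicle regions.

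By the class given in the lists, the condition-specific Sox regions were 17 intergenic, 15 intronic, 4 promoter and 3 5′ UTR regions and 1 in a non-coding exon. The intergenic regions that name Sox5 all lie inside Sox5 as RefSeq draws it. Repeats were annotated in 5 of 40 (12.5%), beside 25.4% of all condition-specific regions. They were 2 BIBR1532 regions in Sox6, in a DNA transposon and a LINE-1 element, and 3 vehicle regions, in a simple repeat of Sox5, an LTR element near Sox11 and the LINE-1 element near Sox9. Median widths were 236 bp in the BIBR1532 list and 232 bp in the vehicle list, close to the 247 and 244 bp of the whole lists. A width of 500 bp was reached by 7 regions, 3 of 18 BIBR1532 and 4 of 22 vehicle regions. Of the whole lists 15.8% and 15.2% reached it. Common Sox regions had a median width of 339 bp, against 257 bp over the common list.

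The rest of the family carried fewer regions in total, though not fewer named genes. The other 10 Sox genes (Sox3, Sox7, Sox12, Sox13, Sox14, Sox15, Sox17, Sox18, Sox30 and Sry) were named by 10 BIBR1532, 4 vehicle and 2 common regions, and Sry by 0. A region of any list named 9 of these 10 genes, beside 8 of the 10 members and 59.1% of protein-coding genes. BIBR1532 regions made up 71.4% of their 14 condition-specific regions (exact 95% interval 41.9 to 91.6). That interval includes the 46.5% of the whole series. Members other than Sox5, Sox6 and Sox11 held 11 condition-specific regions. None of the other 10 Sox genes had a common promoter region. Sox12, the third SoxC gene, had 3 BIBR1532 regions and no other, with scores of 1.14 at the promoter and 1.09 and 2.30 in the 3′ UTR. Sox13, the third SoxD gene, had a common region 826 bp past its start with a BIBR1532 region (score 6.34) beside it, centred 1004 bp past the start.

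Among 26 genes listed as partners or targets of Sox proteins, 21 were named by a region of any list, beside 59.1% of protein-coding genes. BIBR1532 regions named 16, beside 34.5%, and vehicle regions named 15, beside 37.5%. The nearest region of each named gene lay between 81 bp (Mbp) and 33015 bp (Pax6) from a start. Naming has no distance limit and genes were not matched by the space around them, so these counts are descriptive. Common promoter regions were present at 2, beside 14.2% of protein-coding genes, and these were Pou3f2, a POU-domain partner of Sox2, and Mitf, a target of Sox10. The intermediate filament gene Nes, a target of Sox2, had 1 BIBR1532 and 2 vehicle regions, and the glial regulator gene Nfia had 3 and 10. Tubb3 and Dcx, neuronal genes downstream of SoxC proteins, had 1 and 1 and 2 and 1. Mbp, a myelin gene and target of Sox10, had 1 BIBR1532 and 3 vehicle regions. Other genes of the list had more BIBR1532 than vehicle regions, among them Mitf with 6 and 4 and Neurod1 with 2 and 0. Over all 26 genes, 29 BIBR1532 and 41 vehicle regions gave a BIBR1532 share of 41.4% (exact 95% interval 29.8 to 53.8). That interval includes the 46.5% of the whole series.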

How the data were processed

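TERT CUT&Tag was measured in 3 BIBR1532 and 3 vehicle samples, grouped by the dose in their titles. Per the submitters' processing notes, CASAVA 1.8, Bowtie2, Picard and MACS2 2.1.2 were used on mm10, with no role or order given. Per the file headers, the authors deposited lists from a bdgdiff folder, annotated with annotatePeaks.pl, in which each region has a score; the scaling between pools is not stated there. Start positions in the deposited lists count from 1, and other coordinates are also those of mm10. The BIBR1532 and vehicle lists, saved in UTF-7, were decoded.

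Regions were taken by the gene they name, leaving out unplaced contigs. Gene bodies, types and promoter sequences came from the RefSeq tables of GRCm38.p6. Each condition is 1 pooled measurement, so counts are set beside those over all genes or regions. Intervals are exact binomial (Clopper-Pearson). They all cover counting error only, treat regions of the same gene as independent and are not tests. The members and lists were chosen with earlier results of these data known. Motifs were searched in promoter windows because no genome sequence was used. All 10 genes are named, and the most similar genes were not sought. Counting functions were tested on simulated data (5 of 5 checks passed). Tables were read with pandas 2.3.3 in Python 3.11.15, intervals came from scipy 1.17.1, and figures were drawn with matplotlib 3.10.9.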

Additional observations from a re-analysis of the deposited data

How the results depend on the processing

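The BIBR1532 share of the condition-specific Sox regions (45%) stayed within its exact interval in 8 of 9 alternatives, between 40% without the most frequent score of each list and 50% at a score of at least 3. Within 10 kb of the start site the share was 22.2%. Most alternatives reuse some or all of the same 40 regions, and the interval is wide (29.3 to 61.5). Staying within it is therefore no independent check. The 40 condition-specific regions became 20 without the most frequent score, 7 at a width of at least 500 bp, 9 within 10 kb of the start site and, in a setting added after seeing the data, 72 with the regions named for Sox1ot, Sox2ot and Sox5os3. The other 4 settings gave 34 to 39 regions. The 4 common regions became 0 at a width of at least 500 bp and 9 with those 3 non-coding genes, and the 3 genes with a common promoter region also became 0 at that width. Each of these settings keeps or adds regions by its own construction. No paired analysis was possible because each condition is 1 pooled list, and for the same reason no replicate could be left out. The depth of the pools is unknown, so a gene without a region may hold signal below the limit of the calls.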
